A study of Rattus norvegicus with 8 samples.

Results

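The perichondral zone of the rat femur growth plate was set against the proliferative zone, gene by gene. The comparison used the arrays labelled with either zone, which were 4 of the 8 arrays of the series: 2 perichondral arrays, from rats of 42 and 46 days of age, and 2 proliferative arrays of the same ages. The other 4 arrays, from the reserve and hypertrophic zones, entered the fit only to share the estimate of the spread. Every array was hybridised with RNA pooled from 3 rats, which was extracted with RNeasy, amplified by Ovation and tagged with biotin. No treatment, strain or genotype is given in the sources used here, and neither is the way the zones were separated or whether 1 set of rats gave the pools of both zones. The ages serve as replicates in the design text. Each zone therefore has n = 2 arrays, and a p-value measures only the spread between pools, which differ in age too. That spread was estimated over all 4 zones and drawn towards that of other probe sets, with 12.58 prior against 4 residual degrees of freedom. A standard error (SE) is therefore not the scatter of the 4 compared arrays alone.

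The growth plate is the cartilage disc through which long bones lengthen. In its proliferative zone, flattened chondrocytes divide in columns and lay down cartilage matrix built on collagen II and aggrecan. The perichondrium is the fibrous sheath at the rim of the plate; its cells make collagen I and other fibrous matrix, receive hedgehog, FGF and BMP signals, and can give rise to chondrocytes and to bone-forming cells. Taken by the labels alone, the comparison places the rim of the plate beside its columns of dividing cells. What tissue each array held beyond its label is not given.

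Values are log2(intensity + 16) after quantile normalization, a scale that understates the difference of dim genes, and each difference is perichondral minus proliferative on that scale, so that 1 unit is a doubling. The 0.95 quantile of the values of 50 genes typical of other organs was 9.58 and serves as a yardstick for dim signals, called the other-organ level. The ratio of 3' to 5' signal for Gapdh, which reports on RNA quality, was 4.47 and 3.78 in the perichondral arrays at 42 and 46 days and 7.10 and 5.39 in the proliferative arrays, so it was higher in both proliferative arrays, and its part in the results was tested only as a covariate. For beta-actin the same ratio was 1.64 and 0.56 in the perichondral arrays and 1.85 and 4.56 in the proliferative arrays. It set the 46-day proliferative array apart, and its part in the results was not tested. Arrays of one zone did not stand closest to each other in every case. Over the probe sets in the brightest share of 0.2, the perichondral arrays correlated at 0.755 and the proliferative arrays at 0.615, while the 46-day perichondral and the 42-day proliferative array correlated at 0.764. These correlations are across probe sets, which are not independent replicates.

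Without a block for age no gene passed the test, and with one 11 genes were higher in the perichondral arrays, among them the matrix genes Col1a1, Mgp and Ogn, the receptors Pdgfra and Boc and the kinase Lats2. With limma and Benjamini-Hochberg adjustment over 31042 probe sets, 0 passed the threshold of an adjusted p below 0.05 in either direction (0% of those tested in each), and the smallest adjusted p was 0.159. At an unadjusted p below 0.05 there were 1551 probe sets, 898 of them higher and 653 lower in the perichondral arrays. With age as a replicate block, 13 probe sets passed with limma, all of them higher in the perichondral arrays (0.0419% of those tested), and 0 passed as lower (0%). They named 11 genes. Because both fits had the same 8 arrays, the difference of each gene was the same in both, and only its error changed.

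The 11 genes passed with adjusted p from 0.0289 to 0.0445 in limma's fit with the age block, with differences from 2.91 to 5.25, or 7.50-fold to 38.1-fold. Without the block their adjusted p in limma ran from 0.159 to 0.963. Leaving out an array of either zone leaves that zone 1 array, so calls lost in such a fit with the block cannot show what single arrays contribute. The differences without the block, with each array left out, ran from 2.79 to 3.02 for Pdgfra and from 4.59 to 5.69 for Boc. They ran from 3.62 to 5.93 for Lats2, from 1.53 to 5.76 for Mgp and from 2.59 to 6.96 for Ibsp. With the Gapdh ratio as a covariate in place of the block, 3 passed (Boc, H19 and Smoc2), and the differences of the 11 genes ran from 2.36 to 6.91, larger for 9 of them. Both perichondral arrays lay above both proliferative arrays for all 11 genes, as for 17.4% of all 14226 genes, and this follows in part from how the 11 were called. Both lay below both proliferative arrays for 17.1% of all genes, and the arrays of the zones overlapped for 9312 of the 14226. The counts of genes higher or lower without overlap that follow are descriptions to be read against these shares.

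**Figure D1:**
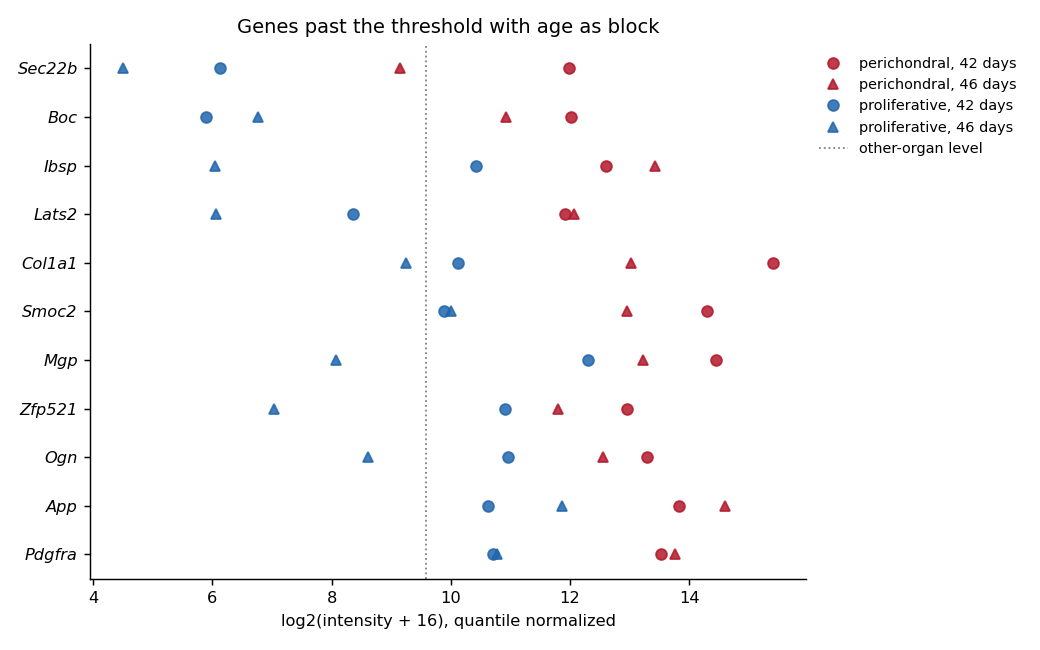
Level of each of the 11 genes past the threshold with the age block, as log2(intensity + 16), in the perichondral (red) and proliferative (blue) arrays at 42 days (circles) and 46 days (triangles); the dotted line is the other-organ level of 9.58. Every red symbol lies to the right of both blue symbols of its gene, and the blue symbols of Mgp, Ibsp and Zfp521 lie far apart.

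Receptors and signalling genes were among the called genes. Pdgfra, the receptor for platelet-derived growth factor that marks many connective tissue precursors, was at 13.53 and 13.76 in the perichondral arrays at 42 and 46 days and at 10.70 and 10.77 in the proliferative arrays. The levels of Pdgfra barely moved with age in either zone, and its difference was 2.91 (SE 0.53), a 7.50-fold rise (adjusted p = 0.0323 in limma with the age block). Lats2, a kinase of the Hippo pathway, was at 11.91 and 12.06 in the perichondral and at 8.37 and 6.06 in the proliferative arrays. Both proliferative values of Lats2 were below the other-organ level, and its difference was 4.77 (SE 0.72) (adjusted p = 0.0289 in limma with the age block). Boc, a coreceptor for hedgehog ligands, was at 12.02 and 10.92 against 5.89 and 6.77, with both proliferative arrays again below the other-organ level and a difference of 5.14 (SE 0.97).

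Among the called matrix genes, Col1a1, a chain of the collagen I that makes up bone and fibrous tissue, was at 15.41 and 13.03 in the perichondral and at 10.12 and 9.24 in the proliferative arrays. Its difference was 4.54 (SE 1.10), or 23.2-fold, and a dimmer probe set of the gene gave 2.96. Mgp, matrix Gla protein, an inhibitor of calcification, was at 14.45 and 13.22 in the perichondral and at 12.30 and 8.07 in the proliferative arrays. The zones of Mgp did not overlap, but the 42-day proliferative array was close to the 46-day perichondral one, and its difference of 3.64 (SE 1.14) was 1.53 without the 46-day proliferative array and 5.76 without the 42-day proliferative array. Smoc2, a matrix protein related to SPARC, was at 14.29 and 12.95 against 9.88 and 10.01, with a difference of 3.68 (SE 0.85) by its brightest probe set. Of the other probe sets of Smoc2, both dim, neither separated the zones.

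Ibsp, the bone sialoprotein of mineralising matrix, was at 12.60 and 13.42 in the perichondral and at 10.42 and 6.05 in the proliferative arrays. The proliferative arrays of Ibsp lay far apart, and its difference of 4.77 (SE 1.09) was 2.59 without the 46-day one and 6.96 without the 42-day proliferative array. Zfp521, a zinc finger nuclear protein, showed the same form, at 12.96 and 11.79 against 10.92 and 7.03, and its difference of 3.40 (SE 0.97) was 1.46 without the 46-day proliferative array and 5.34 without the 42-day one. App, the amyloid precursor protein, was at 13.82 and 14.61 against 10.62 and 11.86 by its brightest probe set, a difference of 2.97 (SE 0.61). The other probe sets of App gave 0.54 and -1.85, so the direction depends on the probe set. Sec22b, a protein of vesicle traffic between the endoplasmic reticulum and the Golgi apparatus, was at 11.98 and 9.14 against 6.12 and 4.50, and the lower perichondral value was below the other-organ level. Its difference was 5.25 (SE 1.03), and a dimmer probe set gave 1.02.

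The remaining zones placed these genes differently. The reserve zone mean was above the proliferative mean for 11 of the 11 genes and at or above the perichondral mean for 5 of them. The 11 were called for proliferative values below the perichondral ones, so the first count follows in part from the call. The shares of all genes in these senses were not computed, and the counts are descriptions. Pdgfra averaged 13.83 in reserve and 11.22 in hypertrophic arrays. Ibsp averaged 14.42 and 14.06, and it was the 1 gene of the 11 whose hypertrophic mean was above its perichondral mean. One of the 2 called probe sets with no gene symbol was at 12.36 and 12.34 in the perichondral and at 8.82 and 8.77 in the proliferative arrays.

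Fibrous collagens lay on the perichondral side more often than genes at large, a description with no test of the list. Of 15 genes of fibrillar and fibrous collagens measured, 7 had both perichondral arrays above both proliferative arrays and 0 had both below, against 17.4% of all genes higher and 17.1% lower in that sense. The median difference of the 15 was 1.43, against 0.02 over all genes, and it was 2.04 at 42 days and 1.15 at 46 days. Only Col1a1 passed the threshold, and only with the age block. With each array left out, the median ran from 1.34 to 1.61, with the Gapdh covariate it was 2.14, and with the mean over all probe sets of a gene it was 0.89. In bulk samples such as these, fewer cells of a type and less RNA per cell cannot be told apart. High collagen was not particular to the perichondral arrays. Reserve means of Col1a1, Col1a2 and Col5a2, 15.73, 15.87 and 14.20, were above the perichondral means of 14.22, 15.04 and 14.08. Those of Col3a1, Col16a1 and Col14a1, 10.53, 10.71 and 9.15, were below the perichondral means of 11.66, 10.99 and 10.24. Hypertrophic means of Col1a1 and Col1a2, 13.71 and 14.34, lay between the perichondral and proliferative means.

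Col1a2, the second chain of collagen I, was at 15.36 and 14.73 in the perichondral and at 12.17 and 11.36 in the proliferative arrays, without overlap and with a difference of 3.28 (SE 0.98); its other probe set gave 3.47. Col5a2, a chain of the collagen V that helps start collagen I fibrils, was at 14.43 and 13.72 against 12.40 and 10.15, a difference of 2.80 (SE 0.93), and 3.71 by its other probe set. Col3a1, the collagen of soft connective tissue, was at 12.07 and 11.24 against 7.81 and 10.10, with a difference of 2.70 (SE 0.74) that was larger at 42 days (4.26) than at 46 days (1.14). Col3a1 and Col5a2 lie next to each other on chromosome 9 in RefSeq's order of protein-coding genes, a pair singled out after the values were seen.

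Col16a1, a collagen that associates with fibrils, was at 11.44 and 10.55 in the perichondral and at 9.06 and 7.54 in the proliferative arrays, with a difference of 2.69 (SE 0.84). Col14a1 was at 10.16 and 10.33 against 8.91 and 8.72, a smaller difference of 1.43 (SE 0.74), and a dimmer probe set gave -0.01. The difference of Col14a1 by its brighter probe set is the median of the collagen list. Col15a1, a collagen of basement membrane regions named here after its values were seen, was at 9.37 and 8.40 against 7.27 and 4.78, with all 4 arrays below the other-organ level, and another probe set gave -1.50. The 8 other members overlapped between the zones, with differences from 0.021 for Col12a1 (-0.10 on the values as deposited) to 1.52 for Col5a1.

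**Figure D2:**
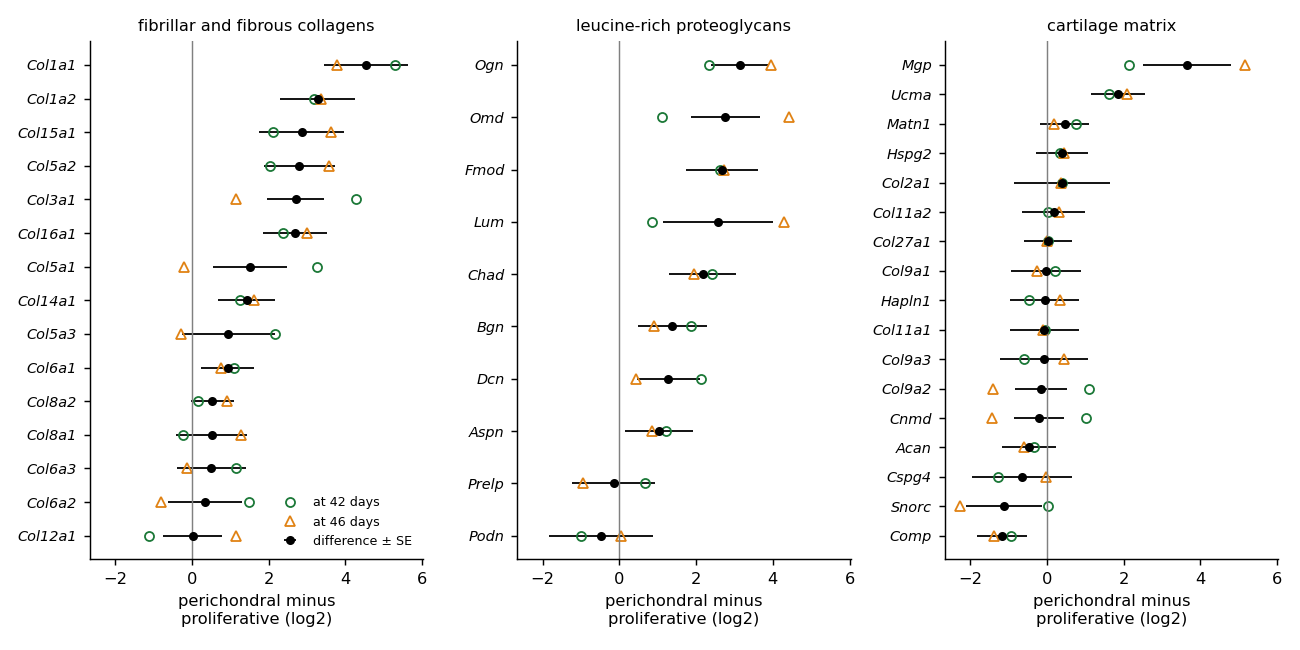
Perichondral minus proliferative difference on the log2 scale for every measured member of the collagen, leucine-rich proteoglycan and cartilage matrix lists, with black points and bars for the difference and its SE, open circles for 42 days and open triangles for 46 days. The black points of the 15 collagens lie right of 0 on these quantile-normalized values (Col12a1 lies left of 0 on the values as deposited), whereas cartilage matrix genes gather around 0 except Mgp and Ucma on the right and Comp and Snorc on the left.

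Small leucine-rich proteoglycans bind collagen fibrils and set their width and spacing. Of 10 measured, 8 had both perichondral arrays above both proliferative arrays and 0 had both below. These shares were 80% and 0%, against 17.4% and 17.1% of all genes. With each array centred on its median in place of quantile normalization, the counts were 7 and 0. These were 70% and 0%, against 18.3% and 15.7% of all genes. The median difference of the 10 was 1.78. That median was 1.08 without the 46-day proliferative array, 1.30 without the 42-day perichondral array, 2.46 without the 46-day perichondral array, and 3.05 with the Gapdh covariate. Ogn passed the threshold with the age block and no other member did.

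Ogn, osteoglycin, was at 13.29 and 12.54 in the perichondral and at 10.96 and 8.60 in the proliferative arrays, with a difference of 3.13 (SE 0.74) that was 1.95 without the 46-day proliferative array. The other probe sets of Ogn gave 2.17, 1.89 and 0.57. Omd, osteomodulin, which binds cells and mineral, was at 13.69 and 13.79 against 12.59 and 9.37, and Lum, lumican, was at 13.41 and 13.19 against 12.56 and 8.91. The 46-day proliferative array was far below the other arrays in both genes: the differences at 42 and 46 days were 1.10 and 4.42 for Omd and 0.85 and 4.28 for Lum. Fmod, fibromodulin of tendon and cartilage, was at 13.38 and 11.29 against 10.75 and 8.57 with a difference of 2.67 (SE 0.94), which ran from 1.58 without the 46-day to 3.77 without the 42-day proliferative array and was 4.54 with the Gapdh covariate.

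Chad, chondroadherin, a cartilage protein that binds cells and collagen II, was at 11.24 and 9.94 in the perichondral and at 8.84 and 7.999 in the proliferative arrays, a difference of 2.17 (SE 0.88). Bgn, biglycan, was at 11.95 and 10.25 against 10.09 and 9.34, a difference of 1.38 (SE 0.89), and Dcn, decorin, named after its values were seen, was at 9.58 and 9.17 against 7.45 and 8.74. The members that overlapped were Prelp at -0.15 and Podn at -0.48.

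Among RefSeq's protein-coding genes on GRCr8, 1 gene (Rpl6-ps6) lies between Aspn (asporin) and Ecm2, a matrix protein with leucine-rich repeats. Ogn, Omd, Aspn and Ecm2 lie in this order on chromosome 17. All 4 were higher in both perichondral arrays than in both proliferative arrays, a set of neighbours singled out after the values were seen. Ecm2 was at 10.84 and 9.62 against 5.70 and 4.72, a difference of 5.02 (SE 1.27), and Aspn was at 10.21 and 9.58 against 9.002 and 8.74, a difference of 1.02 (SE 0.89). On one side of them, Cenpp was higher on average too, by 0.82 (SE 0.78), but its zones overlapped, and on the other side both perichondral arrays of Ippk, at 5.64 and 6.10, lay below both proliferative arrays, at 8.76 and 9.08. The 250 bases before the start of each of the 4 neighbours are shown because these genes separated the zones together. They come from RefSeq on GRCr8, are written from 5′ to 3′ on the gene's minus strand, and lie at chr17:15258996-15259245 for Ogn, chr17:15274871-15275120 for Omd, chr17:15310470-15310719 for Aspn and chr17:15358856-15359105 for Ecm2. Capitals mark every match, on either strand, to TATAAA (the TATA box), CCAAT (the CCAAT box), TGTGGT (Runx), GGAATG (TEAD) and TGANTCA (AP-1).
Ogn: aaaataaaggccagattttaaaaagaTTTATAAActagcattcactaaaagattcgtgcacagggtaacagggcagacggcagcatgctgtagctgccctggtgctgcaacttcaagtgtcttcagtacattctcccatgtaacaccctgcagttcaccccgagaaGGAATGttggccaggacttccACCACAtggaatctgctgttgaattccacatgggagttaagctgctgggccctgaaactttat
Omd: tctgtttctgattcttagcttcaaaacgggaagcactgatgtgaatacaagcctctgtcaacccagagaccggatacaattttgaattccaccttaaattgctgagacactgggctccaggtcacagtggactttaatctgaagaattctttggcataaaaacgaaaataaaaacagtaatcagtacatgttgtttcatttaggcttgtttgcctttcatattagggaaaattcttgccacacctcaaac
Aspn: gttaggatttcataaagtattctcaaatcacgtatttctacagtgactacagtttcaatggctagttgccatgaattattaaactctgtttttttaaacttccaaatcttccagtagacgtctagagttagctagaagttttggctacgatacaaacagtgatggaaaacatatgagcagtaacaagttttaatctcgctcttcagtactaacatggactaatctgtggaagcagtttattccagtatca
Ecm2: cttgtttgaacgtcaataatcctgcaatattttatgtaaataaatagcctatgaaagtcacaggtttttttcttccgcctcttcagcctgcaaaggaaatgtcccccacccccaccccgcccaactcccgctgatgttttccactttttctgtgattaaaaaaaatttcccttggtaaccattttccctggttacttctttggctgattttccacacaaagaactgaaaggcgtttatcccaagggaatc
Matches were found before Ogn only: 2 TATAAA matches, which overlap on opposite strands, 1 TGTGGT match and 1 GGAATG match. Of 33469 RefSeq promoters of that length, 12.9% held TATAAA, 34% CCAAT, 14.5% TGTGGT, 12.1% GGAATG and 6.34% TGANTCA. The share of G and C was 46% for Ogn, 38.8% for Omd, 34.8% for Aspn and 41.6% for Ecm2, each below the median of 51.2% over all promoters. A match is a description of letters and not a binding site.

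Matricellular proteins, which sit in the matrix and act on cells, were mixed. Of 28 matricellular and elastic fibre genes, 6 were higher without overlap and 4 lower, with a median difference of 0.24. These shares of 21.4% and 14.3% are near the 17.4% and 17.1% of all genes. Postn, periostin, a protein typical of periosteum and perichondrium, was at 11.48 and 10.12 in the perichondral and at 7.92 and 6.80 in the proliferative arrays. Both perichondral arrays of Postn were above the other-organ level and both proliferative arrays below it, and its difference was 3.44 (SE 1.12). The means of Postn in reserve and hypertrophic arrays, 7.07 and 7.20, were below it as well. Sparc, a collagen-binding protein of bone, was at 16.21 and 14.84 against 13.86 and 13.46, and its other probe set gave 2.53. Tnc, tenascin C, had opposite signs at the 2 ages, and its 46-day proliferative array lay between the perichondral ones.

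Genes that process and crosslink collagen were at a median of 0.45 over 19 genes, with 5 higher and 3 lower without overlap (26.3% and 15.8%, against 17.4% and 17.1% of all genes). Lox, the lysyl oxidase that crosslinks collagen and elastin, was at 11.61 and 9.56 in the perichondral and at 7.78 and 9.43 in the proliferative arrays, a difference of 1.98 (SE 0.88) that was 3.83 at 42 days and 0.13 at 46 days. Pcolce, an enhancer of procollagen cleavage, was at 9.84 and 9.43 against 7.77 and 9.09, a difference of 1.20 (SE 0.78).

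Tendon and ligament genes, a list of 7 that shares Fmod with the proteoglycans and Tnc with the matricellular genes, had 4 higher and 0 lower without overlap (57.1% and 0%, against 17.4% and 17.1% of all genes) and a median of 1.42. That median was 0.88 without the 42-day perichondral array, 0.90 without the 42-day proliferative array, 0.64 with brighter probe sets only and 2.55 with the Gapdh covariate. Tnmd, tenomodulin, a marker of mature tendon cells, was at 8.24 and 6.94 in the perichondral and at 6.12 and 6.22 in the proliferative arrays, all below the other-organ level. The list's median of 1.42 is the difference of this dim gene. Of the 7 members, 3 had a perichondral mean above the other-organ level. Scx, the tendon transcription factor scleraxis, overlapped at 8.18 and 8.45 against 9.03 and 7.11.

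The list of fibroblast and perichondrium markers checked the label of the zone, and its members went both ways. Of 27 measured, 7 were higher and 4 lower without overlap, with a median of 0.23. These shares of 25.9% and 14.8% are near the 17.4% and 17.1% of all genes. Pdgfra and Sfrp1 were among the higher members, and Prrx1, a transcription factor of limb connective tissue, was lower, at 9.20 and 8.51 in the perichondral and at 10.06 and 10.37 in the proliferative arrays with a difference of -1.36 (SE 0.98).

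Of 17 cartilage matrix genes measured, 4 were higher, 1 lower and 12 overlapping (23.5% higher and 5.88% lower, against 17.4% and 17.1% of all genes), and the median difference was -0.06, which became 0.77 with the Gapdh covariate. Col2a1, the main collagen of cartilage, was at 17.80 and 17.58 in the perichondral and at 17.40 and 17.21 in the proliferative arrays, near the top of the scale in all 4, with a difference of 0.38 (SE 1.25). Acan, aggrecan, the large proteoglycan of cartilage, was at 12.73 and 12.08 against 13.08 and 12.69, an overlap, and its difference of -0.47 became 0.77 with the Gapdh covariate and was 0.51 by its other probe set. Both genes were far above the other-organ level in all 4 arrays.

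Besides Mgp, the member of this list with the largest difference was Ucma, a Gla-rich protein of chondrocytes, at 15.80 and 14.99 in the perichondral and at 14.19 and 12.90 in the proliferative arrays. Its difference was 1.85 (SE 0.70), its zones did not overlap, and its hypertrophic mean was 9.27. Matn1, the cartilage matrilin, was at 10.96 and 10.54 against 10.21 and 10.37, a difference of 0.46 smaller than its SE. Comp, a pentameric cartilage protein, was the 1 member lower without overlap, at 10.55 and 9.90 against 11.49 and 11.29, with a difference of -1.16 (SE 0.65) that was -0.25 with the Gapdh covariate.

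Of 17 hypertrophic chondrocyte genes, 4 were higher and 3 lower without overlap (23.5% and 17.6%, near the 17.4% and 17.1% of all genes), with a median of 0.22. Col10a1, a collagen typical of hypertrophic chondrocytes, was at 13.66 and 13.78 in the perichondral and at 12.62 and 10.94 in the proliferative arrays, a difference of 1.94 (SE 0.72), below its hypertrophic mean of 16.10. Mmp13, the collagenase of late hypertrophic cartilage and bone, was at 12.08 and 9.77 against 8.65 and 8.57, a difference of 2.32 (SE 0.66) that was 1.17 without the 42-day and 3.48 without the 46-day perichondral array. The reserve and hypertrophic means of Mmp13, 14.74 and 14.41, were above its perichondral mean of 10.93. Panx3, a channel of prehypertrophic cells, was lower, at 9.15 and 8.51 against 11.09 and 10.18, with a difference of -1.80 (SE 0.69).

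Genes of cell division had shares near those of all genes in both directions. Of 58 mitosis and cell cycle genes, 13 were higher and 12 lower in the perichondral arrays without overlap (22.4% and 20.7%, against 17.4% and 17.1% of all genes), and the median was -0.07. For 37 DNA replication genes the counts were 7 and 5 (18.9% and 13.5%) and the median 0.13. Mki67, the nuclear protein of cycling cells, was at 12.22 and 12.51 in the perichondral and at 12.84 and 13.04 in the proliferative arrays. It was lower in both perichondral arrays, but its difference of -0.58 (SE 0.62) was smaller than its SE. Birc5 (survivin), with a difference of -0.63 (SE 0.66), and Cks1b, a partner of cyclin-dependent kinases, with -0.70 (SE 0.61), were also lower in both perichondral arrays. Bub1, a kinase of the spindle checkpoint, was higher, at 9.55 and 9.85 against 7.54 and 7.87, a difference of 1.996 (SE 0.86) that was 0.79 with the Gapdh covariate. Top2a, the topoisomerase of dividing cells, was at 8.22 and 8.18 against 9.31 and 7.18 and overlapped.

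The 2 widest differences of the mitosis list lay below the other-organ level in all 4 arrays. Spc25, a kinetochore protein, was at 9.17 and 7.41 against 5.14 and 5.96, and Kif22, a mitotic kinesin, was at 6.24 and 7.04 against 9.22 and 9.40; both were named after their values were seen. Among 15 cell cycle inhibitors and imprinted growth genes, with 4 higher and 2 lower without overlap (26.7% and 13.3%), H19, a maternally expressed noncoding RNA, was at 15.49 and 12.94 in the perichondral and at 11.29 and 10.45 in the proliferative arrays. Its difference was 3.35 (SE 1.11), and it was 6.04 with the Gapdh covariate, where it passed the threshold (adjusted p = 0.0386 in limma). Igf2, the growth factor gene beside H19, had 4 probe sets that disagreed, with differences of -0.92, 0.14, 3.76 and 0.26.

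Wnt signalling genes had 13 of 37 members higher and 5 lower without overlap (35.1% and 13.5%, against 17.4% and 17.1% of all genes), and a median of 0.21. Several secreted antagonists were among the higher ones. Frzb was at 13.65 and 13.000 in the perichondral and at 10.87 and 11.29 in the proliferative arrays, a difference of 2.25 (SE 0.90), with 2.05 by its other probe set. Sfrp1 was at 11.49 and 11.26 against 9.76 and 9.60, a difference of 1.70 (SE 0.61), whereas a dim probe set gave -0.53. The receptor Fzd1 was lower, at 7.96 and 8.89 against 10.89 and 8.91, with -2.92 at 42 days and only -0.019 at 46 days.

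Hedgehog and PTHrP signalling, a loop that holds chondrocytes in the dividing state, had Boc as its 1 higher member of 12 and 3 lower without overlap (8.33% and 25%). Gli1, a target gene of hedgehog signalling, was at 6.73 and 5.98 in the perichondral and at 7.73 and 8.43 in the proliferative arrays, a difference of -1.73 (SE 1.26). Ihh, the ligand made by prehypertrophic chondrocytes, was at 5.18 and 5.99 against 7.34 and 5.14; all values of both genes were below the other-organ level. Pth1r, the receptor of the loop, was at 8.65 and 9.42 against 9.45 and 9.62, a difference of -0.50 (SE 0.70).

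For FGF signalling, 3 of 18 genes were higher and 1 lower without overlap (16.7% and 5.56%, against 17.4% and 17.1% of all genes). Fgfr3, the receptor that restrains chondrocyte growth, was at 12.73 and 12.39 against 12.44 and 12.96 and overlapped, with a difference of -0.14 that was 0.20 on the values as deposited and 0.30 with arrays centred on their medians. Among 29 BMP genes, 7 were higher and 5 lower (24.1% and 17.2%); the antagonist Chrd was at 9.88 and 9.37 against 7.39 and 8.01, a difference of 1.93 (SE 0.83). For TGF-beta, 3 of 19 were higher and 2 lower (15.8% and 10.5%); the ligand Tgfb2 was at 12.43 and 12.50 against 11.70 and 11.57, a difference of 0.83 (SE 0.55), and -0.30 by another probe set.

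In the IGF and growth hormone system, 4 of 20 genes were higher and 4 lower without overlap (20% each, near the 17.4% and 17.1% of all genes). Igfbp7, a secreted IGF-binding protein, was at 11.91 and 10.98 in the perichondral and at 10.22 and 10.48 in the proliferative arrays, a difference of 1.10 (SE 0.59). Irs1, an adaptor of the insulin and IGF receptors, was lower, at 10.57 and 11.11 against 11.91 and 11.84, a difference of -1.03 (SE 0.60). Igf1 itself overlapped, at 9.87 and 10.17 against 10.17 and 9.41.

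Of 29 matrix proteases and inhibitors, 8 were higher and 5 lower without overlap (27.6% and 17.2%, against 17.4% and 17.1% of all genes). The aggrecan-cleaving protease Adamts1 was at 10.06 and 11.29 in the perichondral and at 7.51 and 7.22 in the proliferative arrays, with a difference of 3.31 (SE 0.91), and Adamts4 was at 9.78 and 10.30 against 7.47 and 8.55, with 2.03 (SE 0.73). Glycolysis genes had 1 of 20 higher and 6 lower without overlap (5% and 30%), with a median of -0.08; Aldoa, a glycolytic aldolase, was at 8.20 and 8.99 against 9.62 and 9.72, with both perichondral arrays below the other-organ level. In the 43 genes of oxidative phosphorylation, 4 were higher and 3 lower (9.30% and 6.98%), and Cox6b1, a subunit of cytochrome c oxidase, was at 9.84 and 9.53 against 11.01 and 10.73, a difference of -1.18 (SE 0.56).

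**Figure D3:**
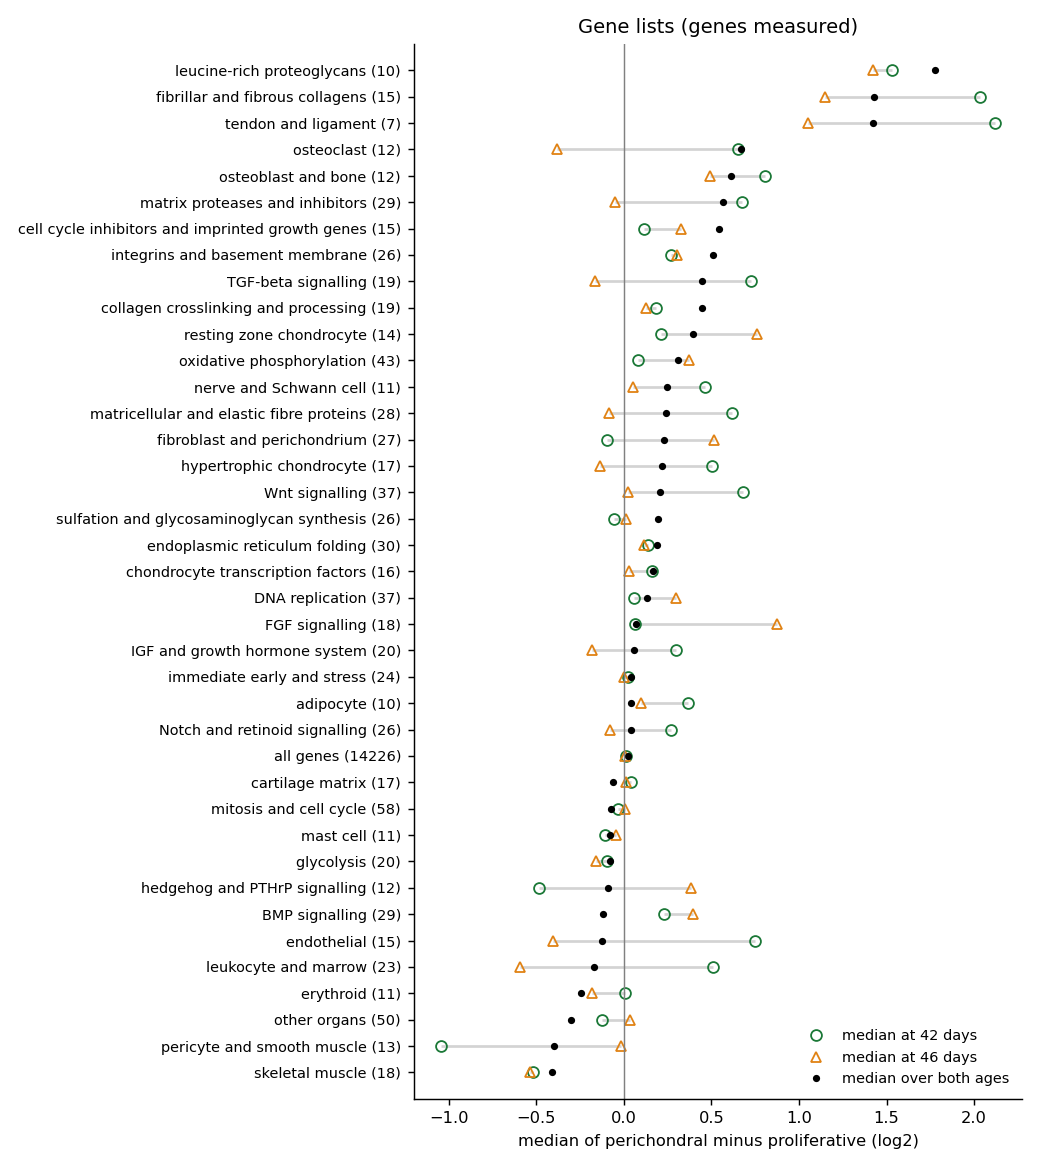
Median perichondral minus proliferative difference on the log2 scale for each of the 38 gene lists and for all genes, with the number of genes measured in brackets, at 42 days (open circles), 46 days (open triangles) and over both ages (black points). The leucine-rich proteoglycans (1.78), fibrous collagens (1.43) and tendon genes (1.42) lie highest, with both ages right of 0. The black point of the collagens is the difference of Col14a1, and that of the tendon genes is the difference of Tnmd, a dim gene.

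Markers of bone-forming cells separated the zones only in part. Of 12 osteoblast and bone genes, 4 were higher without overlap (Ibsp, Col1a1, Col1a2 and Pdpn) and 1 lower (33.3% and 8.33%, against 17.4% and 17.1% of all genes), and the median difference was 0.61 (0.10 with the Gapdh covariate). That median was 1.07 without the 42-day and -0.13 without the 46-day perichondral array, and 0.16 without the 42-day and 1.23 without the 46-day proliferative array. The list's summed intensity, 94823 and 50953 in the perichondral arrays against 9599 and 7418 in the proliferative arrays, was mostly collagen I in the former. Without Col1a1 and Col1a2 the other 10 genes summed to 9337 and 15498 in the perichondral arrays against 3905 and 4209 in the proliferative arrays. Without Ibsp as well, the other 9 genes summed to 3157 and 4530 against 2548 and 4159. Both sums were added after the data were seen. Bglap, the osteocalcin of mature osteoblasts, was at 5.65 and 6.20 in the perichondral and at 5.45 and 8.79 in the proliferative arrays, Alpl, tissue alkaline phosphatase, at 9.11 and 8.63 against 8.61 and 9.77, and Spp1, osteopontin, at 8.47 and 9.05 against 8.83 and 8.51. All 3 overlapped, and every perichondral value of them was below the other-organ level. The part of bone cells in the higher collagen I was not tested further.

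Other cell types that the perichondral arrays could hold were followed by their marker lists. Endothelial genes, 15 measured, had 4 higher and 3 lower without overlap (26.7% and 20%, against 17.4% and 17.1% of all genes), and their summed intensity was 5022 and 3821 in the perichondral arrays against 3778 and 4411 in the proliferative arrays. Of 23 leukocyte and marrow genes, 4 were higher and 5 lower (17.4% and 21.7%), with sums of 6110 and 3712 against 3851 and 4914, and 0 of them had a mean above the other-organ level in either zone. Of 11 erythroid genes 2 were higher and 2 lower (18.2% each), and the summed intensity was 9625 and 4635 against 3579 and 5537. The perichondral arrays therefore did not both exceed both proliferative arrays in any of these sums. Of 13 pericyte and smooth muscle genes 1 was higher and 4 lower (7.69% and 30.8%), and the sums were lower, at 2764 and 3880 in the perichondral arrays against 6166 and 4321 in the proliferative arrays.

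Tfrc, the transferrin receptor, was the erythroid-list gene with the widest difference, at 12.75 and 11.06 in the perichondral and at 9.12 and 9.14 in the proliferative arrays. It serves iron uptake in dividing cells of many kinds, and it made up most of the erythroid sum of the 42-day perichondral array. Hbb, beta globin, overlapped at 9.73 and 8.60 against 9.72 and 10.83. Kdr, the VEGF receptor of endothelial cells, was at 9.59 and 9.58 against 6.88 and 8.69, a difference of 1.80 (SE 0.70), whereas Pecam1, the adhesion molecule of endothelial cells, was at 9.50 and 9.61 against 10.30 and 9.64. The part of vessels and blood in the results was not tested.

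The rule for the widest differences asked for no overlap, at least 1 unit within each age and a higher zone above the other-organ level; 174 genes met it as higher and 63 as lower in the perichondral arrays. The 15 widest higher ones included Boc, Lats2, Ibsp, Col1a1, Ecm2, Smoc2 and Mgp, described above, with adjusted p from 0.159 to 0.963 in limma without the block. Itgbl1, a secreted protein with integrin-like repeats, was at 13.28 and 12.51 in the perichondral and at 8.71 and 9.24 in the proliferative arrays, with a difference of 3.92 (SE 0.81). It just missed the threshold with the age block (adjusted p = 0.0544 in limma). C1r, a protease of the complement cascade, was at 10.51 and 10.48 against 6.68 and 6.95, a difference of 3.68 (SE 0.82) with almost equal arrays within each zone.

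Rbp4, the retinol carrier, was at 11.95 and 9.78 in the perichondral and at 8.81 and 5.34 in the proliferative arrays, and Srgn, the proteoglycan serglycin of secretory granules, was at 11.09 and 9.71 against 4.63 and 8.34. Their differences of 3.79 (SE 1.34) for Rbp4 and 3.92 (SE 1.08) for Srgn rest on unequal proliferative arrays, the 46-day one being the dim one for Rbp4 and the 42-day one for Srgn. Zfp503, a zinc finger repressor, was at 11.55 and 10.84 against 8.70 and 5.85, a difference of 3.92 (SE 0.89), and its other probe sets gave 5.40, 0.41 and -0.07. The other higher genes of the rule were Tmem168 at 3.94, Fam210a at 3.83 and Cdadc1 at 3.54.

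The 15 widest lower genes had differences from -3.71 for LOC102547242 to -2.05 for Fcnb, and none passed the threshold (adjusted p from 0.917 to 0.963 in limma, and at least 0.35 with the age block). For 12 of the 15, both perichondral arrays were below the other-organ level. Of those that were not, Ccdc88c, a regulator of Wnt and G protein signalling, was at 8.51 and 10.54 in the perichondral and at 11.61 and 12.52 in the proliferative arrays, a difference of -2.54 (SE 0.69). Kdm7a, a histone demethylase, was at 9.70 and 10.26 against 11.48 and 12.62, a difference of -2.07 (SE 0.72), and Smim5, a small membrane protein, was at 9.83 and 8.11 against 11.12 and 12.04. Usf2, a transcription factor of the helix-loop-helix class, was at -2.10 by its brightest probe set, while its other probe sets gave 0.33 and 1.86. Pck2, the mitochondrial PEP carboxykinase, was at 8.004 and 7.70 against 9.81 and 10.11. The others of the 15 were Cyp3a23-3a1, Prkd3, Iqck, Il2, Abcb4, Mmp23, Milr1 and C1qtnf12, whose differences ran from -3.29 for Cyp3a23-3a1 to -2.08 for C1qtnf12.

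Across all 14226 genes, the difference at 42 days and the difference at 46 days correlated at 0.057, and at 0.169 across the brightest share of 0.2, correlations across genes, which are not independent replicates. Both differences were above 0 for 3736 genes and below 0 for 3636. Among the collagens 9 of 15 and among the leucine-rich proteoglycans 8 of 10 were higher at both ages, and 0 of either were lower at both.

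**Figure D4:**
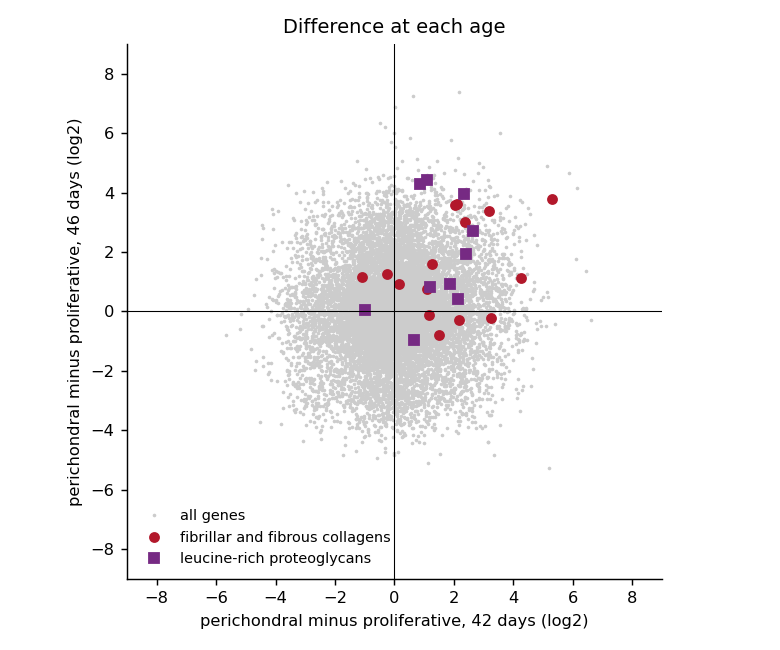
Perichondral minus proliferative difference of each gene on the log2 scale at 42 days (horizontal axis) and at 46 days (vertical axis), with all 14226 genes in grey, collagens as circles and leucine-rich proteoglycans as squares. The grey cloud shows little slant, and 9 of 15 collagens and 8 of 10 proteoglycans lie to the upper right of 0.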

How the data were processed

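Gene expression was measured on 8 Affymetrix rat arrays. The deposited table holds linear intensities of 31099 probe sets, with a trimmed mean of 500.08 to 500.16 in every array (trimming a share of 0.02). MAS5, GCOS and RMA were used by the authors per the submitters' processing notes, which give neither versions nor roles. The genome build was not given in the sources used here, and detection calls were not used. Precision is limited by the number of arrays.

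From the deposited intensities, 57 control probe sets were left out and log2(intensity + 16) was computed and quantile normalized, because array medians on the log2 scale differed by more than 0.1. In R 4.3.3 with limma 3.58.1, a linear model with zone means was fitted over all 8 arrays (eBayes with a variance trend, 4 residual degrees of freedom), with Benjamini-Hochberg adjustment over 31042 probe sets, two-sided, at 0.05. Only the fit without the age block was run on simulated data, which had independent noise and no age effect. That run says nothing about the fit with the block.

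Symbols came from the platform annotation, updated by gene identifier for 20758 probe sets. Of the probe sets, 20837 had 1 symbol, 425 several and 9780 none, and none was named from several. A gene was its probe set with the highest mean over the 8 arrays (14226 genes). Named were the 15 widest differences in each direction by the rule given in the text, every gene past the threshold with or without the age block, up to 6 members of each of 38 lists, and 25 growth plate genes, 21 of them measured. Members and lists were chosen with earlier results of these data known. A count without overlap means that both arrays of one zone lay above both of the other.

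The labels give both zones the same ages. As a check of pairing, the age difference correlated between the zones at 0.0487 across all probe sets and at 0.170 across the brightest share of 0.2. With 2 pairs this does not settle pairing. Alternatives were the scaling, the pseudocount (1 and 64), a filter on dim probe sets, age as a replicate block, the 4 arrays alone, the variance prior, the Gapdh ratio as a covariate, other probe sets and each array left out; the block with an array left out, and counts without overlap under other scalings, were added after seeing the data.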

Additional observations from a re-analysis of the deposited data

Results flagged for a closer look

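Listed here are results whose perichondral minus proliferative difference had opposite signs at 42 and at 46 days. The difference between the ages was not tested, since each zone has 1 array per age.

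Among the gene lists, 16 had medians of opposite sign, all on the log2 scale. The median was 0.62 at 42 days and -0.08 at 46 days for matricellular and elastic fibre proteins, -0.10 and 0.52 for fibroblast and perichondrium genes, and 0.51 and -0.14 for hypertrophic chondrocyte genes. It was -0.033 and 0.0046 for mitosis and cell cycle genes, -0.48 and 0.38 for hedgehog and PTHrP signalling, and 0.73 and -0.17 for TGF-beta signalling. For the IGF and growth hormone system it was 0.30 and -0.18, for Notch and retinoid signalling 0.27 and -0.08, and for matrix proteases and inhibitors 0.67 and -0.05. Sulfation and glycosaminoglycan synthesis gave -0.057 and 0.012, and immediate early and stress genes 0.026 and -0.00054. Of the cell type lists, osteoclast genes gave 0.65 and -0.38, erythroid genes 0.0094 and -0.18, leukocyte and marrow genes 0.51 and -0.59, endothelial genes 0.75 and -0.40, and genes of other organs -0.12 and 0.036.

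Single genes with opposite signs included Tnc, tenascin C, at 5.41 at 42 days and -0.42 at 46 days, Fos, the immediate early transcription factor, at -4.06 and 0.77, and Ihh at -2.15 and 0.85. Ccn2, a matricellular growth factor, was at -0.053 and 2.40, Fgfr3 at 0.28 and -0.57, Igf1 at -0.29 and 0.76, Scx at -0.85 and 1.34, Top2a at -1.09 and 0.99, and Hbb, beta globin, at 0.0094 and -2.23. Among collagens and proteoglycans, Col5a1 was at 3.25 and -0.21, Col12a1 at -1.11 and 1.15, Prelp at 0.66 and -0.96, and Podn at -0.998 and 0.035. Of the bone markers, Alpl was at 0.51 and -1.13, Bglap at 0.20 and -2.59, and Spp1 at -0.35 and 0.55.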

How the results depend on the processing

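The count of probe sets past the threshold in limma, 0, was also 0 with the values as deposited, median-centred arrays, pseudocounts of 1 and 64, the filter on dim probe sets, the 4 arrays alone, no variance trend and a robust prior. It was 3 with the Gapdh ratio covariate, 13 with age as a replicate block, and 0 to 6 when 1 array was dropped (4 without the 42-day and 6 without the 46-day hypertrophic array, 2 without the 42-day proliferative array); with the block, leaving out an array gave 0 to 12. Whether the ages pair the zones is not settled, and the cause of these moves was not tested. Of 109 gene differences, 81 kept their direction under every alternative run, which was fixed in advance for many of these runs. The block, the 4 arrays alone, the variance settings, the filter and a dropped reserve or hypertrophic array cannot change a difference. For a gene without overlap, dropping 1 array of either compared zone cannot turn the sign. The count is therefore no measure of stability. Directions reversed with the Gapdh covariate for Acan (0.77), Fgfr3 (0.15), Igf1 (-0.38), Top2a (0.21), Spp1 (-0.065), Prelp (1.20), Podn (0.11) and Col12a1 (-0.14); on the values as deposited for Fgfr3 (0.20), Spp1 (-0.022) and Col12a1 (-0.10); and with median-centred arrays for Fgfr3 (0.30) and Col12a1 (-0.0092). Other probe sets gave the opposite sign for App (-1.85), Col14a1 (-0.0070), Acan (0.51), Sfrp1 (-0.53), Cyp26b1 (-0.072), Fgfr3 (0.53), Mmp23 (1.86), Itga6 (-0.092, -2.31 and -0.019), Zfp503 (-0.070), Cdadc1 (-0.17), Usf2 (0.33 and 1.86), Sox6 (-0.97), Igf2 (3.76, 0.26 and 0.14), C1qtnf12 (1.83), Tgfb2 (-0.30), Col15a1 (-1.50) and Col12a1 (-0.26). The ranges with each array left out, for the genes whose sign turned, were -0.20 to 5.75 for Cyp26b1, -0.40 to 0.12 for Fgfr3, -0.14 to 0.61 for Igf1, -1.75 to 0.45 for Ihh, -0.71 to 1.21 for Scx, -1.11 to 1.01 for Top2a, -3.64 to 0.35 for Fos, -0.89 to 0.27 for Alpl, -2.86 to 0.48 for Bglap, -0.19 to 0.39 for Spp1, -1.05 to 0.75 for Prelp, -0.98 to 0.021 for Podn, -0.73 to 0.77 for Col12a1 and -0.24 to 1.87 for Cenpp. The list medians of collagens ran from 0.89 to 2.14 over the alternatives other than leaving out an array, those of leucine-rich proteoglycans from 1.68 to 3.05, of tendon genes from 0.64 to 2.55, of cartilage matrix from -0.06 to 0.77 and of all genes from -0.00034 to 0.095. Signal near the other-organ level limits the size of differences of dim genes.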

Other observations

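Further gene groups are given by their counts without overlap, to be read against 17.4% of all genes higher and 17.1% lower in the perichondral arrays. Of 16 chondrocyte transcription factors, 2 were higher and 4 lower (12.5% and 25%). Sox6, a partner of Sox9, was at 9.98 and 9.82 in the perichondral and at 7.59 and 9.28 in the proliferative arrays, but its other, dimmer probe set gave -0.97. Pitx1, a hindlimb factor, was at 8.46 and 8.15 against 10.18 and 10.38, and Dlx5, a factor of hypertrophy and bone, was at 8.97 and 8.93 against 9.83 and 9.91. Of 26 integrin and basement membrane genes, 6 were higher and 4 lower (23.1% and 15.4%); the laminin receptor chain Itga6 was at 12.87 and 13.23 against 12.21 and 11.004, but its other probe sets gave -0.09, -2.31 and -0.02. Of 26 Notch and retinoid genes, 5 were higher and 4 lower (19.2% and 15.4%); Cyp26b1, which degrades retinoic acid, was at 11.82 and 9.81 against 11.01 and 5.06.

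Skeletal muscle markers gave 4 higher and 6 lower of 18 (22.2% and 33.3%), and their summed intensity was 28743 and 41563 in the perichondral arrays against 36529 and 73405 in the proliferative arrays. Most of each sum was 1 gene, Myh1, a myosin heavy chain, which overlapped at 14.61 and 15.21 against 14.99 and 16.09. Only 1 of the 18 had a perichondral mean above the other-organ level, and 2 had such a proliferative mean. Resting zone chondrocyte genes gave 4 higher and 1 lower of 14 (28.6% and 7.14%), endoplasmic reticulum folding genes 6 and 2 of 30 (20% and 6.67%), and immediate early and stress genes 5 and 8 of 24 (20.8% and 33.3%).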
